A study of Mus musculus with 6 samples.

Results

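Expression of 10 imprinted genes was followed in sorted mouse beta cells. They were Meg3, Rian, Dlk1, Igf2, H19, Peg3, Grb10, Plagl1, Ndn and Snrpn, taken by symbol from a table of 23087 genes that each had 1 locus. All 10 symbols had 1 locus and were kept. Of these, 9 had a mean of at least 1 FPKM (fragments per kilobase of transcript, scaled to the mapped fragments of a library) over the libraries, and H19 was listed at 0 in all of them.

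An imprinted gene is read mainly from the copy inherited from 1 parent, because DNA methylation laid down in the egg or the sperm sets the parental copies apart. In mice Dlk1, Igf2, Peg3, Plagl1, Ndn and Snrpn are paternally expressed, and Meg3, Rian and H19 are maternally expressed long RNAs that do not code for protein. Grb10 is maternally expressed in most tissues and paternally in neurons. In beta cells the Dlk1-Meg3 domain is known as a source of abundant Meg3 and of the microRNAs hosted by its maternal transcripts. The table gives 1 value per gene and library, so it does not show which parental copy was read.

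The 6 libraries were poly-A RNA of beta cells sorted from islets of mice on a mixed 129J-C57BL/6 background. The mice were wild type (WT) or RIP-Cre/FoxO1 floxed (IKO), in which Cre under the rat insulin promoter removes the transcription factor FoxO1 from beta cells. That promoter is also known to drive Cre in some hypothalamic neurons. Each genotype was sampled at 3 stages: nulliparous aged 3 months, nulliparous aged 12 months, and aged 12 months after 3 pregnancies (multiparous). In the labels the multiparous WT library is titled NGT and its IKO counterpart DM, and what these titles mark cannot be told apart from genotype and parity. Each group was 1 library, the number of animals behind it was not given, and whether WT mice carried Cre or the floxed allele alone was not given either. Differences between a pair of libraries therefore have no replicate behind them.

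Foxo1, the targeted gene, stood at 5.67, 7.62 and 8.93 FPKM in the WT libraries (3 months, 12 months nulliparous, multiparous) and at 0.410, 0.410 and 0.656 in the IKO libraries. Of 8 beta cell markers, Ins1, Ins2 and Iapp were listed at 0 in all 6 libraries, although beta cells make much of these messages, so a listed 0 can be a failed estimate. The other 5 ranged from 37.5 FPKM (Slc2a2) to 182 (Ucn3). The 12-month nulliparous WT library stood apart, with r = 0.955 to 0.961 to the others across genes and 0.982 to 0.993 among those. Its summed markers of other cells were the highest of the libraries for alpha (1102 FPKM, 319 to 759 elsewhere), delta (616, 157 to 252), PP (1535, 431 to 663), acinar (81.3, 4.18 to 28.9), endothelial (8.61, 3.96 to 4.36) and stellate cells (2.18, 0.317 to 1.25). Its leukocyte sum was the lowest (5.69, 8.50 to 12.3 elsewhere). The duct (523, 472 to 591) and neural sums (3.62, 3.54 to 4.59) lay within those of the others. Gcg gave 913 FPKM of its alpha sum, and 3 of the 5 alpha markers averaging at least 1 FPKM were highest there. This library was also the shallowest by a rough estimate. It stood at 0.769 times the depth of the 3-month WT library, against 0.833 to 1.02 for the other 4. Fitted differences of age and parity that are given below for a member are followed by their values without it.

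Levels of the 9 detected genes spanned a wide range on the FPKM scale, which is per transcript length. Meg3 ranked 28 by mean among all 23087 genes, at 480 to 668 FPKM. Rian (97.3 to 190 FPKM) and Peg3 (109 to 156) came next and overlapped. Snrpn (22.5 to 37.4) and Ndn (24.2 to 28.4) overlapped as well, below Peg3. Grb10 stood at 8.21 to 11.5 FPKM. Plagl1 (2.06 to 3.09), Igf2 (1.29 to 3.65) and Dlk1 (0.684 to 1.98) formed the low end, where Igf2 overlapped with both of the others and Plagl1 lay above Dlk1 in every library.

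**Figure D1:**
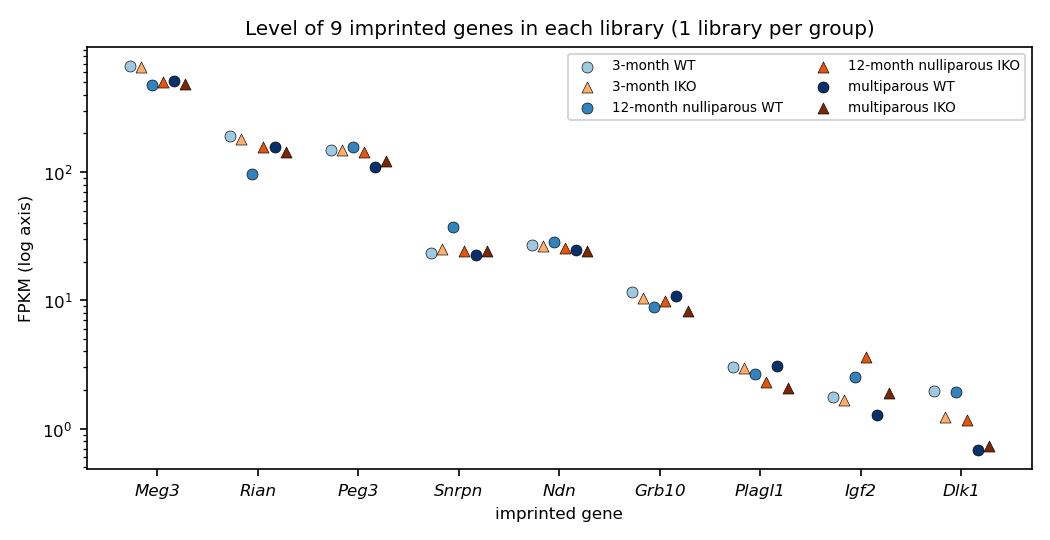
FPKM (log axis) of the 9 detected imprinted genes, with 1 point per library (circles WT, triangles IKO, darker from 3 months to multiparous). Meg3 lies at 480 to 668 FPKM in every library and Dlk1 at 0.684 to 1.98.

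Meg3, Rian and Dlk1 lie in 1 domain of chromosome 12. Meg3 is a long noncoding RNA whose deletion in mice disturbs the whole domain, and Rian is a noncoding transcript downstream of it that hosts snoRNAs and microRNAs. Dlk1 encodes a transmembrane relative of the Notch ligands that restrains differentiation of fat precursors. In the table Meg3 spans 109540996 to 109571729, Rian 109603945 to 109661711 and Dlk1 109452823 to 109463336 (mm10), exons and introns together.

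The 250 bases before an annotated start are shown for these 3 genes, because Meg3 and Rian were the members with 3-month values apart from all later ones and Dlk1 was a member lowest after pregnancies. They come from RefSeq on GRCm38.p6, read 5′ to 3′ on the gene's strand. Capitals mark matches on either strand to TGCCGC (the core bound by the imprint-protecting protein ZFP57), TGACGTCA (the cAMP response element) or GTAAACA (a forkhead motif that FoxO proteins bind), which do not overlap here. The TGCCGC and GTAAACA matches lie on the opposite strand and so read GCGGCA and TGTTTAC.
Meg3, chr12:109540746-109540995, plus strand: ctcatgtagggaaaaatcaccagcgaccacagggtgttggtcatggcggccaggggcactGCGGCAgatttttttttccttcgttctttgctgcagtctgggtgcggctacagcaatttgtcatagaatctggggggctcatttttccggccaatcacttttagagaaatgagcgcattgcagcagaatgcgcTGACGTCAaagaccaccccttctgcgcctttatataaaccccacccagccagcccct
Rian, chr12:109603695-109603944, plus strand: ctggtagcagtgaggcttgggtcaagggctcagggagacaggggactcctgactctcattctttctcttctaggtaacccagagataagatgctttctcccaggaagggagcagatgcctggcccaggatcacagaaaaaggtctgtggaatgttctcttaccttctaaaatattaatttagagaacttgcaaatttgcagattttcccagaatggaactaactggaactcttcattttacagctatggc
Dlk1, chr12:109452573-109452822, plus strand: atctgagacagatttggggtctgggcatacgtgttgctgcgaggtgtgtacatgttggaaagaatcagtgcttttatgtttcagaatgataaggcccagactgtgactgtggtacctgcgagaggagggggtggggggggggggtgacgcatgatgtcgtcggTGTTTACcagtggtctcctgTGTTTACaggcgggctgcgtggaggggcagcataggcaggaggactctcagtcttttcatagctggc
The Meg3 window shown held a TGCCGC match that begins 190 bases before the start and a TGACGTCA match at 57 bases. The window of another annotated Meg3 start (109545148 to 109545397) held no match. The Dlk1 window held a pair of GTAAACA matches, at 87 and 67 bases. The Rian window held no match to these letters. Of 17 windows of members, 2 held TGCCGC, 2 TGACGTCA and 1 GTAAACA. Among 32851 annotated promoter windows of this length, 8.68% held TGCCGC, 1.55% TGACGTCA and 3.17% GTAAACA. The motifs were chosen with the sequences in view, and a match is a description of letters, not of binding.

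Meg3 measured 668 (3-month), 480 (12-month nulliparous) and 516 FPKM (multiparous) in the WT libraries, against 663, 504 and 485 in their IKO counterparts. Both 3-month libraries lay above all 4 later ones, and the genotypes differed little at any stage. The ratio of 12 to 3 months was 0.718 in WT and 0.761 in IKO, whereas multiparous to nulliparous was 1.07 and 0.962. The narrowest gap between the age classes was 1.28-fold. A gap at least as wide in that direction was found for 35 of 11104 genes (0.315%), and for 68 (0.612%) without the 12-month nulliparous WT library. Such gap shares, here and below, were counted only for members already seen apart, in that grouping and direction. They describe the gap and are not p-values. In the additive limma fit the log2 difference of FPKM + 1 between 12 and 3 months was -0.43 (SE 0.15, lower in both genotypes; unadjusted p = 0.0351, limma adjusted p = 0.740), which does not pass the threshold. It was -0.37 without the 12-month nulliparous WT library.

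Rian measured 190 (3-month), 97.3 (12-month nulliparous) and 157 FPKM (multiparous) in the WT libraries, against 180, 156 and 142 in their IKO counterparts. It shared with Meg3 that both 3-month values lay above the rest, with a gap of 1.15-fold. A gap that wide was seen for 108 genes (0.973%), and for 208 (1.87%) without the 12-month nulliparous WT library. The ratio of 12 to 3 months was 0.513 in WT and 0.865 in IKO. The WT ratio uses the library that stood apart. A trait of that library and an age difference particular to WT cannot be told apart here. The limma log2 difference was -0.58 (SE 0.24, adjusted p = 0.740), and -0.19 without that library. Rian stood at 27.2% to 30.9% of the Meg3 level in 5 libraries and at 20.3% in the 12-month nulliparous WT library.

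Mirg, the microRNA-hosting transcript at the far end of the domain, did not share this order, with 26.5 and 29.6 FPKM at 3 months (WT, IKO) and 21.5 to 29.1 in the other 4 libraries. Rtl1, a retrotransposon-derived placental gene, and Dio3, a thyroid hormone deiodinase, stayed at or under 0.0302 FPKM. Between Dlk1 and Mirg the table lists 57 microRNA rows, of which 55 were at 0 in every library. Mir1188, inside Rian, was listed at 15.2, 13.8, 7.78, 0, 10.4 and 0 FPKM in the order used above, and Mir433 at 8.98 in the 12-month nulliparous IKO library, 0.271 in the 3-month IKO library and 0 elsewhere. Poly-A libraries do not measure mature microRNAs, and these short rows share reads with their hosts.

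Dlk1 measured 1.98 (3-month), 1.94 (12-month nulliparous) and 0.684 FPKM (multiparous) in the WT libraries, against 1.24, 1.18 and 0.737 in their IKO counterparts. It was lower in IKO than in WT before pregnancies, at ratios of 0.624 and 0.607, and level after them, at 1.08. Both multiparous libraries lay below the other 4, with the narrowest gap at 1.60-fold, and 18 of 11104 genes (0.162%) had a gap at least as wide in that direction. Without the 12-month nulliparous WT library this held for 23 genes (0.207%). Dlk1 ranked 10790 by mean among all 23087 genes, so most of the 11104 stood at higher levels, and genes of like level were not compared separately. The limma log2 difference for parity was -0.57 (SE 0.16, lower in both genotypes; unadjusted p = 0.0191, adjusted p = 0.605), and for genotype -0.27 (SE 0.13, adjusted p = 0.923), neither past the threshold. Without the 12-month nulliparous WT library they were -0.44 and -0.18. With all 6 libraries and a pseudocount of 0.1 in place of 1 they were -0.997 and -0.41, so their size depends on the pseudocount. These levels are low. A rough conversion gives 41 to 169 fragments behind the multiparous WT value, depending on the transcript, so counting error is not negligible.

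**Figure D2:**
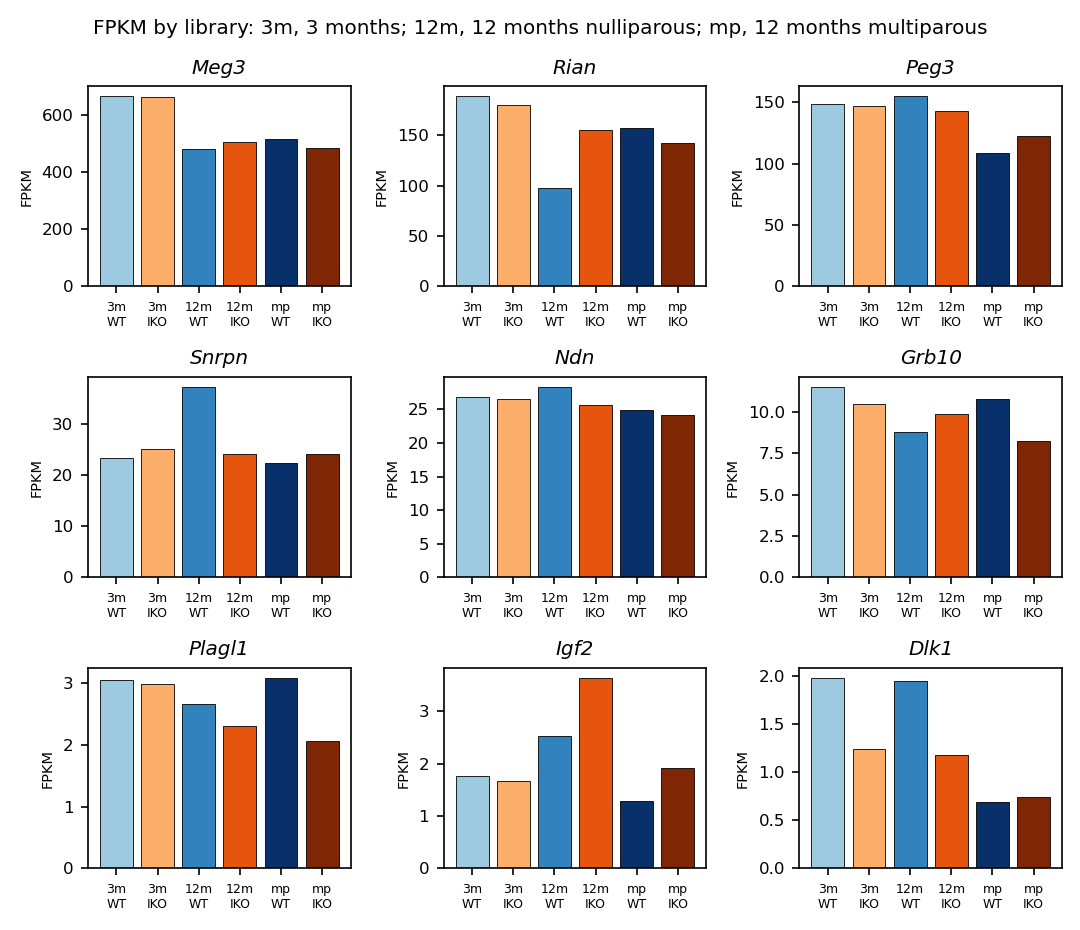
FPKM of each detected imprinted gene by library, 1 bar per library with no replicate and an axis from 0 (3m, 3 months; 12m, 12 months nulliparous; mp, multiparous). The 3-month bars of Meg3 (668 and 663) exceed its 4 later bars (480 to 516), and the multiparous bars of Dlk1 (0.684 and 0.737) are its lowest.

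Igf2 encodes the growth factor IGF-II, and H19 is a noncoding RNA next to it that shares its enhancers. H19 (chromosome 7, 142575532 to 142578146) was listed at 0 in all 6 libraries, as was Ins2, so its level cannot be read here. Igf2 (chromosome 7, 142650768 to 142661035) measured 1.77 (3-month), 2.53 (12-month nulliparous) and 1.29 FPKM (multiparous) in the WT libraries, against 1.67, 3.65 and 1.91 in their IKO counterparts. Both 12-month nulliparous libraries were the highest, with the IKO library above the WT one. The share of all genes with this order was not counted, so it has no background here. A rough conversion gives 44 to 322 fragments behind the multiparous WT value, depending on the transcript. The limma log2 difference was 0.57 for age (SE 0.15, higher in both genotypes; unadjusted p = 0.0145, adjusted p = 0.740) and -0.65 for parity (SE 0.15, lower in both genotypes; unadjusted p = 0.00906, adjusted p = 0.519), and neither passes. Both differences use the same 2 nulliparous libraries of 12 months, so they are not separate observations. Without the WT one of them they were 0.70 and -0.77 (adjusted p = 0.149 and 0.0692). With all 6 libraries and a pseudocount of 0.1 in place of 1, the differences were 0.79 for age and -0.91 for parity. Their size thus depends on the pseudocount. The 12-month nulliparous WT library also had the highest alpha, delta, PP, acinar, endothelial and stellate sums. Its IKO counterpart, with the higher Igf2 value, had the second highest acinar (28.9 FPKM) and stellate (1.25) sums, while its alpha, delta, PP and endothelial sums were 589, 177, 431 and 4.18. The part of these cells in the Igf2 values was not tested.

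Peg3 (chromosome 7, 6705960 to 6730419) encodes a zinc finger protein linked to fetal growth and maternal behaviour. Its promoter window is shown because Peg3 was lowest in the multiparous libraries and, like the Meg3 window, it held TGACGTCA (capitals), here at 178 bases before the start.
Peg3, chr7:6730420-6730669, minus strand: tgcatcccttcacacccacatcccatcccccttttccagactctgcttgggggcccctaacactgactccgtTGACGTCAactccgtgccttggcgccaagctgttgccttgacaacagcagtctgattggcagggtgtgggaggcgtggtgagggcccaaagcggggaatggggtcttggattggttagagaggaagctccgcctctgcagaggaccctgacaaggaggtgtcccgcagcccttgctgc
Peg3 measured 149 (3-month), 156 (12-month nulliparous) and 109 FPKM (multiparous) in the WT libraries, against 147, 143 and 122 in their IKO counterparts. The multiparous values lay below the other 4, with a gap of 1.17-fold, and the 4 nulliparous values lay close together. A gap that wide was seen for 138 genes (1.24%), and for 238 (2.14%) without the 12-month nulliparous WT library. The ratio of multiparous to nulliparous at 12 months was 0.701 in WT and 0.858 in IKO. The limma log2 difference was -0.36 (SE 0.13, lower in both genotypes; unadjusted p = 0.0461, adjusted p = 0.646), which does not pass. It was -0.26 without the 12-month nulliparous WT library. Peg3as, an antisense RNA inside Peg3, was at 0.533 to 2.72 FPKM, and whether counting used the strand was not given in the sources used here.

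Some marker sums lay apart by parity too. The summed beta cell markers were 306 and 360 FPKM in the multiparous libraries and 448 to 507 in the other 4, and the summed acinar markers were 5.04 and 4.18 against 7.397 to 81.3. The leukocyte sum went the other way, at 12.3 and 10.1 against 5.69 to 9.73. Its most abundant marker, Cd68, overlapped, however, at 7.81 and 7.01 FPKM against 1.16 to 7.04. Cd74, the next most abundant, overlapped as well. The part of the beta cell, acinar and leukocyte sums in the Dlk1 and Peg3 values was not tested. In bulk RNA, fewer cells of a type and less RNA per cell cannot be told apart. For age, only the endothelial sum of the 10 marker lists lay apart, and narrowly, at 3.96 and 4.12 FPKM at 3 months and 4.18 to 8.61 later. Esam, its most abundant marker, overlapped, at 3.31 and 3.54 FPKM at 3 months and 2.95 to 5.38 later. The alpha, delta, PP, duct, stellate and neural sums overlapped in both comparisons. The part of the endothelial sum in the Meg3 and Rian values was not tested.

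Ndn and Snrpn belong to the domain deleted in Prader-Willi syndrome. Ndn (chromosome 7, 62348277 to 62349927), which encodes the growth-restraining protein necdin, was the steadiest member, with 26.9, 28.4 and 24.9 FPKM in the WT libraries (3-month, 12-month nulliparous, multiparous) and 26.5, 25.7 and 24.2 in the IKO libraries. Its multiparous values were the lowest, by a gap of 1.03-fold that 619 genes (5.57%) reached, or 1142 (10.3%) without the 12-month nulliparous WT library, and its highest value was 1.18 times its lowest. Its fitted log2 difference for parity (limma) was -0.13 (SE 0.11, adjusted p = 0.654), and -0.0781 without that library.

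Snrpn (chromosome 7, 59982502 to 60140219), which encodes a spliceosomal Sm protein, measured 23.5 (3-month), 37.4 (12-month nulliparous) and 22.5 FPKM (multiparous) in the WT libraries, against 25.1, 24.2 and 24.2 in their IKO counterparts. The 12-month nulliparous WT library alone was high, and the other 5 lay within 22.5 to 25.1. Snurf, which shares its transcript with Snrpn, followed it at 5.83% to 6.35% of its level, and how reads were divided between the overlapping rows makes both values uncertain. Its fitted log2 difference for age (limma) was 0.30 (SE 0.21, adjusted p = 0.740) and became -0.05 without that library.

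Grb10 and Plagl1 lie alone on their chromosomes among the members. Grb10 (chromosome 11, 11930499 to 12037420) encodes an adaptor that binds the insulin and IGF1 receptors and dampens their signal. It measured 11.5 (3-month), 8.81 (12-month nulliparous) and 10.8 FPKM (multiparous) in the WT libraries, against 10.4, 9.84 and 8.21 in their IKO counterparts. No stage or genotype kept its libraries apart. Fitted log2 differences (limma) were -0.11 for genotype (SE 0.12, adjusted p = 0.923) and -0.22 for age (SE 0.15, adjusted p = 0.740). The age value was -0.0226 without the 12-month nulliparous WT library and -0.41 without its IKO counterpart, and the genotype value was 0.00745 without either multiparous library and -0.24 without either 12-month nulliparous one.

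Plagl1 (chromosome 10, 13090788 to 13131695) encodes the zinc finger factor ZAC1, known in mice to regulate a network of other imprinted genes. Its promoter window is shown as the other member window with TGCCGC, which lies on the opposite strand and begins 90 bases before the start (capitals).
Plagl1, chr10:13090582-13090831, plus strand: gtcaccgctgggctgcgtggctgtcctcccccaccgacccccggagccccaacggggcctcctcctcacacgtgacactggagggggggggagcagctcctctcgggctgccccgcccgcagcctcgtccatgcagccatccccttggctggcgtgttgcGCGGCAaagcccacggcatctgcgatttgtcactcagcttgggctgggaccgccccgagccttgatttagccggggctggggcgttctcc
Plagl1 measured 3.05 (3-month), 2.66 (12-month nulliparous) and 3.09 FPKM (multiparous) in the WT libraries, against 2.99, 2.30 and 2.06 in their IKO counterparts. The IKO value was the lower of the pair at every stage, with ratios of 0.980, 0.863 and 0.668, yet the values of the genotypes overlapped across stages. Its fitted log2 difference for genotype (limma) was -0.20 (SE 0.11, lower in 3 of 3 stages, adjusted p = 0.923). It was -0.0865 without either multiparous library and -0.28 without either 3-month library.

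In 7 pairs of libraries a 2-fold difference of FPKM + 1 was counted among genes with at least 5 FPKM in 1 of both, which left 6 members (Meg3, Rian, Peg3, Ndn, Snrpn and Grb10). None of these 6 reached 2-fold in any pair, although Rian came to 0.513 times its 3-month value in WT. Members below 5 FPKM were not counted. Their FPKM ratios went past 2-fold for Dlk1 between multiparous and nulliparous WT (0.352) and for Igf2 between 12 and 3 months in IKO (2.18). As FPKM + 1 these were log2 ratios of -0.81 and 0.80, short of 2-fold. For IKO against WT, the share of all compared genes that reached it was 0.111% in the 3-month pair, 3.88% in the 12-month nulliparous pair and 0.221% in the multiparous pair. For 12 against 3 months the shares were 4.19% in WT and 0.256% in IKO. For multiparous against nulliparous they were 4.89% in WT and 0.487% in IKO. With shares this low, a count of 0 of 6 is near the background and is no result about the members. The split of these calls rests on the scaling in the pairs with the 12-month nulliparous WT library: of the called genes 83.9% were higher at 12 than at 3 months in WT, and 52.4% after rescaling without the 20 highest genes, when Rian reached 2-fold as well. The share higher in IKO than WT at 12 months nulliparous was 16.7% and became 47.7%, and the share higher in multiparous than nulliparous WT was 26.7% and became 53.0%.

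**Figure D3:**
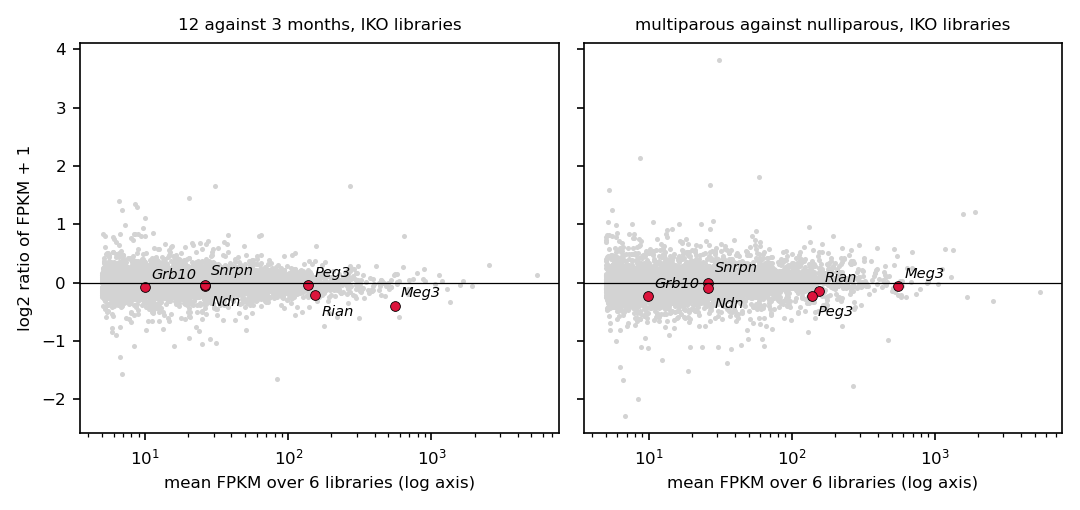
Log2 ratio of FPKM + 1 (y axis) against mean FPKM over the libraries (x axis, log) between the IKO libraries of 12 and 3 months (left) and between the multiparous and nulliparous IKO libraries of 12 months (right); grey points are genes averaging 5 FPKM or more and never listed at 0, red points the 6 members among them. Meg3 is at -0.39 on the left and at -0.06 on the right, and Peg3 at -0.22 on the right.

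Both 3-month libraries lay above the 4 others for 2 of 9 members (Meg3 and Rian), against 7.66% of 11104 genes. Without the 12-month nulliparous WT library this held for 5 members (also Dlk1, Peg3 and Ndn), against 13.2% of genes, and after rescaling without the 20 highest genes for 4 (without Dlk1), against 12.0%. Both multiparous libraries lay below the others for 3 of 9 members (Dlk1, Peg3 and Ndn), against 9.24% of genes, and for the same 3 without that library, against 16.6%. All IKO libraries lay above all WT libraries, or below them, for 0 of 9 members, against 3.29% and 2.32% of genes.

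In the additive limma fit, which has 2 residual degrees of freedom, 0 of 9 members were called for genotype, age or parity at an adjusted p of 0.05. Of all 11131 genes tested, 0% were called for genotype, 0.027% for age and 0.027% for parity. At an unadjusted p under 0.05 there were 0 members for genotype, 2 for age (Meg3 and Igf2) and 3 for parity (Igf2, Dlk1 and Peg3), against 1.62%, 4.33% and 7.4% of all genes. Calls appeared only when the 12-month nulliparous IKO library was left out. Then 4 members were called for age (Meg3, Rian, Snrpn and Grb10) and 6 for parity (Dlk1, Igf2, Peg3, Rian, Snrpn and Ndn; limma adjusted p = 0.00115 to 0.0409), but so were 6039 and 6319 of all genes. In that fit the library that stood apart was the only nulliparous one of 12 months, and its part in the calls was not tested.

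**Figure D4:**
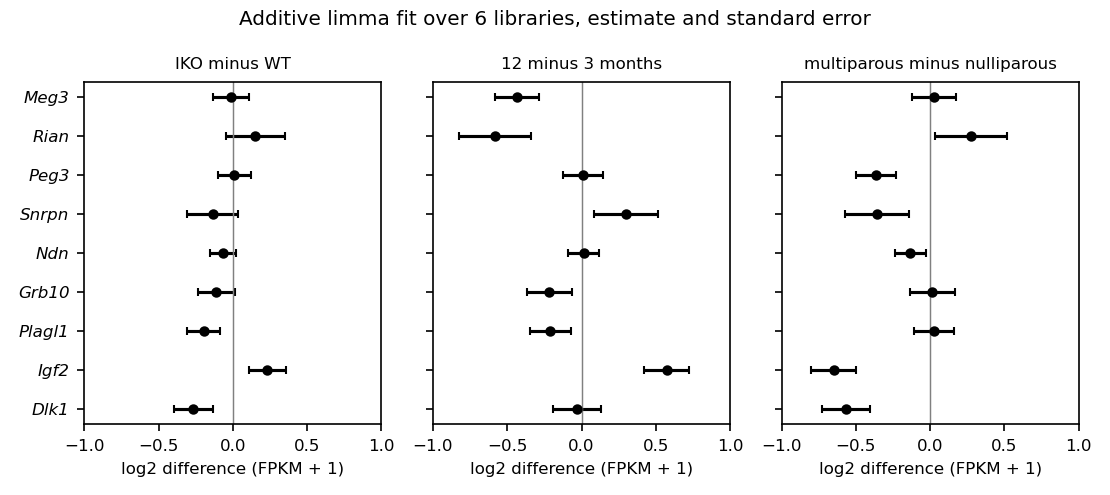
Log2 difference of FPKM + 1 (x axis) for each detected imprinted gene in the additive limma fit over 6 libraries, points with standard errors, for genotype, age and parity. Meg3 (-0.43) and Rian (-0.58) lie lowest for age, and Igf2 (-0.65) and Dlk1 (-0.57) for parity. Estimates of the low genes Dlk1, Igf2 and Plagl1 are larger in size with a pseudocount of 0.1.

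Of 63 further genes listed as imprinted, 32 had a mean of at least 1 FPKM. Whether these 32 are imprinted in beta cells cannot be read from the values. In the limma fit 23 of them lay above 0 for genotype and 9 below, 12 above and 20 below for age, and 16 on either side for parity, with 0 called in each. Over all genes 44.3%, 52.4% and 47.2% lay below 0. The median log2 differences of the 32 genes were 0.07, -0.08 and -0.01, against 0.02, -0.01 and 0.01 over all genes. For the 22 of them outside the members' domains, the median log2 ratio of IKO to WT was 0.01 (3-month), 0.33 (12-month nulliparous) and -0.05 (multiparous). For 12 against 3 months it was -0.29 in WT and -0.08 in IKO. The values 0.33 and -0.29 include the 12-month nulliparous WT library, which stood apart. Gnas, which encodes the stimulatory G protein alpha subunit, was the most abundant of the 32, at 436 to 519 FPKM. Slc38a4, an amino acid transporter gene, was at 55.4 to 98.6 FPKM and Commd1, a copper-handling gene, at 48.6 to 64.3.

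Zim1, a zinc finger gene beside Peg3, measured 5.24, 3.09 and 2.89 FPKM in the WT libraries by stage and 4.79, 3.68 and 2.66 in the IKO libraries. It was thus highest at 3 months and lowest after pregnancies. Nnat, which encodes neuronatin, a small protein that aids insulin processing in beta cells, was also highest at 3 months (7.00 and 5.28 FPKM), with 2.24 to 5.09 later. Of the 32 genes, 3 had both 3-month libraries above the rest (Nnat, Zim1 and Osbpl5, a lipid transfer gene) and 1 below (Nap1l4), which is 9.38% and 3.13% of them, against 7.66% and 8.4% of all 11104 genes. Both multiparous libraries were below the rest for 5 (Zim1, Osbpl5, Trpm5, Smoc1 and Ddc), or 15.6%, and above for 0, against 9.24% and 11.8% of all genes. These shares were not tested.

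Ddc, which encodes aromatic amino acid decarboxylase and neighbours Grb10, measured 130, 186 and 78.0 FPKM in the WT libraries (3-month, 12-month nulliparous, multiparous) and 144, 140 and 110 in the IKO libraries. It was 1 of 2 further imprinted genes past 2-fold in some pair, between the WT libraries of 12 months. The other was Tssc4, a splicing-related gene, at 250 FPKM in the 12-month nulliparous WT library and 80.9 to 98.4 elsewhere. Cd81, a tetraspanin gene of the same cluster, was at 20.6 to 35.2 FPKM, Nap1l4 at 41.6 to 52.8 and Ube3a, the ubiquitin ligase gene of Angelman syndrome, at 12.2 to 14.0.

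**Figure D5:**
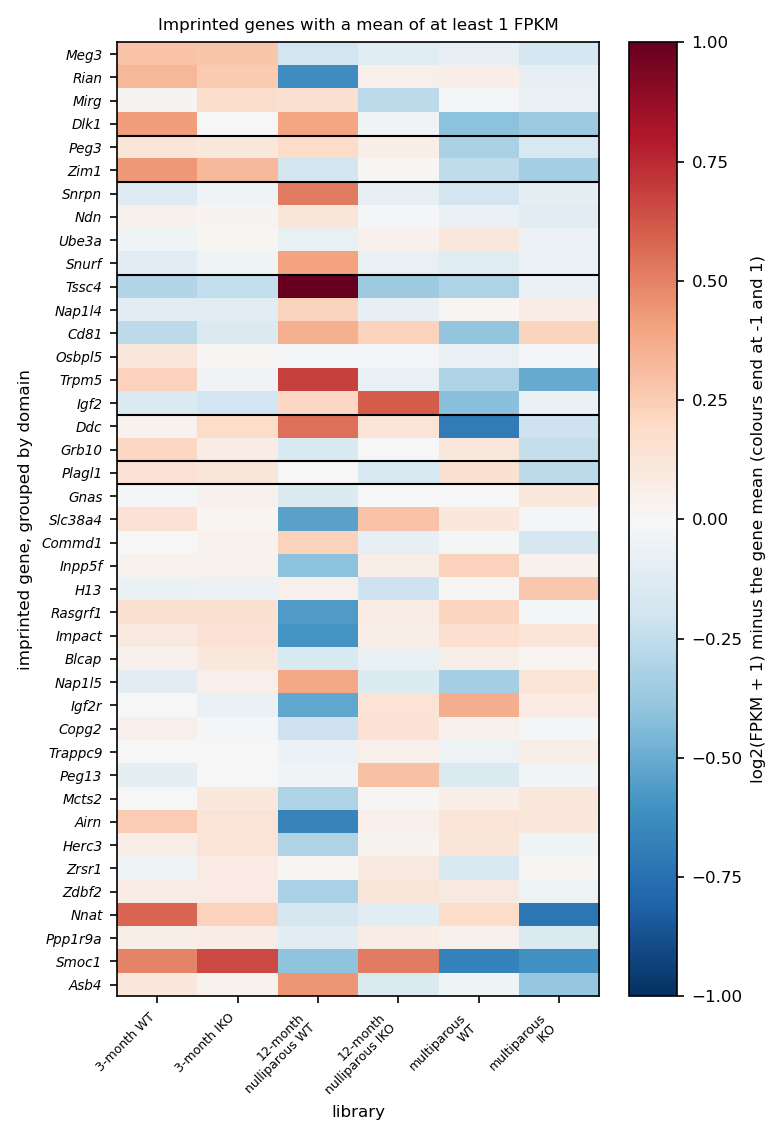
Centred log2(FPKM + 1) of the 41 imprinted genes averaging 1 FPKM or more (rows, grouped by domain with black lines) in the 6 libraries (columns); red is above the gene's mean and blue below. Meg3 is red in both 3-month columns, and many rows take their strongest colour in the 12-month nulliparous WT column, such as Tssc4 at 250 FPKM.

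Of 15 genes that keep or remove imprints and DNA methylation, 10 had a mean of at least 1 FPKM and 0 were called in any of the 3 contrasts. Trim28, the corepressor that ZFP57 recruits, was the most abundant at 30.2 to 32.1 FPKM, with Zfp445, another imprint-protecting zinc finger gene, at 17.1 to 23.5 and Ctcf, the insulator protein gene, at 14.6 to 19.98. Zfp57 itself was at 0.0153 to 0.0944 FPKM. Of 12 IGF and insulin receptor partners, 7 had a mean of at least 1 FPKM and 0 were called. Igf1r, the IGF1 receptor, was at 29.7 to 51.2 FPKM, Igf2r, which clears IGF-II and is itself imprinted, at 12.3 to 23.3, and Igfbp7, an IGF-binding protein gene, at 32.5 to 43.2.

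The genes whose centred profile over the 6 libraries was nearest to a member's were named by the mean absolute difference on the log2(FPKM + 1) scale, out of 8041 genes. For Meg3 they were Snhg8 (0.0486), Rabgap1l (0.0571) and Rnft2 (0.0607), and Rian took rank 580. For Rian they were Rassf6 (0.0350), 1810022K09Rik (0.0355) and Ndufaf2 (0.0468). For Peg3 they were Ociad2 (0.0300), Pfkm (0.0356) and Aldh2 (0.0415). For Grb10 they were Pon3 (0.0276), Wdsub1 (0.0422) and Mina (0.0480), for Ndn Tecpr1 (0.0115), Ric8 (0.0148) and Ercc5 (0.0187), and for Snrpn Sptssa (0.0173), Emc10 (0.0184) and Tango2 (0.0188). No member was among the 3 nearest genes of another.

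Within 250 kb of a member few other rows had a mean of at least 1 FPKM, leaving out microRNAs. There were 3 each beside Meg3 and Rian, all of the domain, 2 beside Dlk1, 2 beside Igf2, 3 beside H19, 2 beside Peg3, 1 beside Grb10, 3 beside Plagl1, 0 beside Ndn and 2 beside Snrpn.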

How the data were processed

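RNA of sorted beta cells was measured in 6 libraries (1 per group), made strand-aware from poly-A RNA with paired 100-base reads, per the labels' protocols. The authors deposited FPKM values, 1 column per library; TopHat, Cufflinks and Cuffdiff with mm10 were used, per the submitters' processing notes, with versions not given in the sources used here. Excluded were 758 rows of 260 symbols that sit at several loci. Positions are the deposited ones with 1 added to the start, since this gave the RefSeq start for 76.6% of 11991 genes with the same end. FPKM depend on transcript models, on the division of shared reads, and on the most abundant genes.

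Relative depth was estimated from genes under 0.1 FPKM in the 3-month WT library and above 0 in the library compared with it. After scaling by the depth, 37.7% (12-month nulliparous WT) to 53.0% of values stood to the 3-month WT value in ratios of whole numbers up to 4, within 2%. The share expected without steps was not counted, so the relative depths are rough too. These ratios gave only the depth relative to the 3-month WT library. Absolute depth was put at roughly 44 to 59 M fragments, from low values of genes with 1 transcript in GENCODE M21 and their lengths. It was searched only within a range set beforehand, into which 146 to 192 genes per library fell. This depth is thus a rough estimate, as are the fragment numbers of members that use it, and counts were not recovered.

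Members, lists, and motifs were chosen with earlier results of these data known. Named genes were the 10 members, Foxo1, the 3 most abundant genes of a list or those past 2-fold in a pair, and the 3 nearest profiles of members with a mean of at least 5 FPKM; imprinted genes apart by age or parity, Zfp57, Rtl1 and Dio3 were added after their values were seen. Genes averaging 1 FPKM or more (11131) were tested as log2(FPKM + 1) in limma, version 3.58.1 under R 4.3.3, with additive genotype and stage, trend, and Benjamini-Hochberg adjustment over all of them at 0.05. The code of the fit was tested on simulated data with additive effects and equal noise in every library. These data differ, since 1 library stood apart, so that test does not show how the fit performs here. The p-values reflect spread among these libraries alone, and an effect of genotype that differs between stages counts as error. Alternatives were a pseudocount of 0.1, other filters, 2 rescalings and leaving out each library.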

Additional observations from a re-analysis of the deposited data

Results flagged for a closer look

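Both results below were flagged because the same contrast went in opposite directions in 2 settings, each by more than the median size over all genes; with 1 library per group the difference was not tested. Rian was lower in IKO at 3 months (log2 ratio -0.07) and in the multiparous pair (-0.14) but higher at 12 months nulliparous (0.67), which puts the first and the last -0.748 apart and the last and the multiparous pair 0.820 apart. Rian was also higher in the multiparous than in the nulliparous library in WT (0.69) and lower in IKO (-0.13), again 0.820 apart. Snrpn was higher in IKO at 3 months (0.10) and in the multiparous pair (0.10) but lower at 12 months nulliparous (-0.61), which gives differences of 0.704 and -0.709. All 5 comparisons include the 12-month nulliparous WT library, which stood apart.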

How the results depend on the processing

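No paired analysis was possible because each group held 1 library and the labels give no replicate numbers; the additive fit itself compares the genotypes within the 3 stages. Of the log2 differences of members under the alternatives, 277 kept direction and side of the threshold, 10 passed it (all without the 12-month nulliparous IKO library) and 28 changed sign, and the cause was not tested. Leaving out 1 library in turn turned the sign of small differences, within these log2 ranges. For genotype these were Snrpn -0.26 to 0.0985, Meg3 -0.0502 to 0.0294, Grb10 -0.24 to 0.00745, Rian -0.11 to 0.30, Peg3 -0.0676 to 0.0772. For age these were Snrpn -0.0548 to 0.65, Ndn -0.0406 to 0.0713, Peg3 -0.0905 to 0.11, Dlk1 -0.15 to 0.0968. For parity these were Meg3 -0.0367 to 0.0849, Grb10 -0.18 to 0.21, Rian -0.12 to 0.67, Plagl1 -0.14 to 0.19. Rescaling without the 20 highest genes turned Meg3 for genotype (0.0410) and Ndn and Peg3 for age (-0.0848 and -0.0931), and it moved the median of all genes to 0.0617, -0.0989 and 0.0830 for genotype, age and parity; median-ratio rescaling turned Peg3 for genotype (-0.0017). Genes called by limma for genotype were 0, and 1 with a pseudocount of 0.1 and 2 to 9 with a library left out. For age they were 3, then 0 without genes listed at 0 and 17 to 6039 with a library left out. For parity they were 3, then 0 with no filter, with a mean of at least 5 FPKM or without genes listed at 0, 1 after rescaling without the 20 highest genes, and 20 to 6319 with a library left out. Members called with a library left out were 0 to 4 for age and 0 to 6 for parity, in fits with 1 residual degree of freedom that assume the lone library varies like the other groups. With a minimum of 1 FPKM, 34 genes in place of 21 differed 2-fold between the IKO libraries of 12 and 3 months, and 70 in place of 40 between the multiparous and nulliparous ones; after rescaling without the 20 highest genes 1 member (Rian) differed 2-fold between the WT libraries of 12 and 3 months. Members highest at 3 months were 2, then 5 without the 12-month nulliparous WT library and 4 after rescaling without the 20 highest genes, alternatives chosen after seeing the data. The low levels of Dlk1 and Igf2 limit their precision. With a pseudocount of 0.1 the log2 differences of Dlk1, Igf2 and Plagl1 were larger in size in every contrast.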
